A study of Homo sapiens with 28 samples.

Results

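The EGF family ligand genes EPGN, EREG, AREG, BTC and HBEGF were described here by the CUT&RUN peaks in the chromatin around them. Members were all deposited peaks that overlapped either of 2 windows of the human genome build hg19. Peaks were taken by position and not by any measured value, while the windows themselves were chosen with earlier results of these data known. The first, chr4:75130000-75750000 (620 kb), is the window of EPGN, EREG, AREG and BTC, and the second, chr5:139650000-139790000 (140 kb), is the window of HBEGF. They held 650 of the 1123812 peaks in 28 lists, 459 in the chromosome 4 window and 191 in the HBEGF window. By antibody, 372 were H3K27ac peaks (14 libraries), 235 were p-c-JUN peaks (6 libraries) and 43 were FOXF1 peaks (8 libraries). Joined over all libraries wherever peaks overlapped by at least 1 bp, they formed 105 regions, 78 on chromosome 4 and 27 on chromosome 5.

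The cells were IMR-90 ER:Ras, human lung fibroblasts with an inducible oncogenic Ras that is switched on by 4-hydroxytamoxifen (4-OHT). Senescent cells (Sen) had 100 nM 4-OHT for 6 days. Knockdown groups were Sen cells given small interfering RNAs against FOXF1 and FOXF2 (siFOXF1/2), against p300 and CBP (sip300/CBP), or against JUN proteins, and their Sen references had a control siRNA (siCtrl). The JUN knockdown is titled cJUN/JUND-KD, while its treatment tag also names JUNB. Proliferating cells (Pro) are named as such in the titles only: their tags give the same siCtrl, 4-OHT treatment and senescent cell type as the Sen samples, so the label Pro rests on the title. Each group had 2 libraries, except H3K27ac in Sen cells, which had replicates 1 and 2 and, in a later set of records, replicates 3 and 4. All samples are 1 cell line, and nothing in the labels says that replicates came from different cultures, so a p-value here reflects library-to-library spread that may be technical. The fibroblast identity could not be checked here, because the files name no genes and no gene positions of build hg19 were used.

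The EGF family ligands are made as membrane-anchored precursors that proteases such as ADAM17 cut from the cell surface. All 5 members bind the EGF receptor, and BTC, EREG and HBEGF also bind ERBB4. AREG (amphiregulin), EREG (epiregulin) and HBEGF (heparin-binding EGF-like growth factor) are known as growth factors that stressed and senescent fibroblasts can secrete, while EPGN (epigen) and BTC (betacellulin) are better known from epithelia. FOXF1 is a forkhead transcription factor of lung mesenchyme. p-c-JUN is the phosphorylated, active form of c-JUN, a subunit of the transcription factor AP-1. H3K27ac is a histone acetylation written by p300 and CBP and found at active promoters and enhancers.

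The promoters of AREG and BTC are shown because they carry a CRE or forkhead motif, and that of EREG as an example of a promoter with the core TATA motif alone, which EPGN also has. They are RefSeq sequences of build GRCh38.p14, from 250 bases before to 50 bases after the gene start, 5′ to 3′ on the gene's own strand. Capitals mark matches, on either strand, to the AP-1 motif TGANTCA, the related CRE motif TGACGTCA, the forkhead core TGTTTAC or the TATA box TATAAA. EREG lies on the plus strand at chr4:74364895-74365194, AREG on the plus strand at chr4:74444886-74445185 and BTC on the minus strand at chr4:74794474-74794773 of that build.
EREG: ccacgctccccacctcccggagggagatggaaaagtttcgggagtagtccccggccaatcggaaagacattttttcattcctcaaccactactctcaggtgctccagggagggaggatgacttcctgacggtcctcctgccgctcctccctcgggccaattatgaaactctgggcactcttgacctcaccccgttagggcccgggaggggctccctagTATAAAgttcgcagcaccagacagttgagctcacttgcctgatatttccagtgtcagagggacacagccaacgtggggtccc
AREG: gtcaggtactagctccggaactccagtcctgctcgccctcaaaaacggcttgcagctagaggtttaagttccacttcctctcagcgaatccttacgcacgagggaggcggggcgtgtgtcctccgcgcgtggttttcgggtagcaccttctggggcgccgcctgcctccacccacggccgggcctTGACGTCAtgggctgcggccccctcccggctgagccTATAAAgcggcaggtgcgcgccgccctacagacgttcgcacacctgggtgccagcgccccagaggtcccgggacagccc
BTC: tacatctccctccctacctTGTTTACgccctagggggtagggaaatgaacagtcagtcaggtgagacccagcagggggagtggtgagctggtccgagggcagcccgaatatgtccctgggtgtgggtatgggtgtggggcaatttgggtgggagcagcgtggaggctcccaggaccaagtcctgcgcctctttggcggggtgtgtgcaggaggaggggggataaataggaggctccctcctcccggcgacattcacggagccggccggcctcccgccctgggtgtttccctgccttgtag

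All 5 members matched an entry in the promoter table. The AP-1 motif was in none of the 5 promoters, against 7.71% of all 35116 promoters of the same length. The CRE motif was in AREG alone, from base 186 (1.85% of all promoters), and the forkhead core in BTC alone, from base 20 (3.42%). EPGN, EREG and AREG each held 1 TATA box, from bases 222, 219 and 222, against 11.5% of all promoters, and BTC and HBEGF held none. The shares of G and C were 37.7% in EPGN, 57.7% in EREG, 66.3% in AREG, 63% in BTC and 75% in HBEGF, against a median of 58.7%. These windows were not matched to the peaks, which are on another build. A match is a description of letters and shows no binding.

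The peak lists differed greatly in length, and a long list has more peaks everywhere. FOXF1 lists held 203 and 143 peaks after siFOXF1/2, 400 and 902 after the JUN knockdown, 13622 and 40556 in Sen cells and 3456 and 11080 in Pro cells. p-c-JUN lists ran from 24834 to 93466 peaks. H3K27ac lists ran from 26712 to 89338, apart from the sip300/CBP libraries (4206 and 1566) and their own Sen controls (8246 and 2058). Read depth is unknown, so peak numbers are given below as deposited and also per 10000 peaks of the same list, a measure chosen after seeing the data. The libraries are of bulk cells, so fewer cells with a bound site and less binding per cell cannot be told apart.

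In the chromosome 4 window, H3K27ac peaks were more frequent in senescent than in proliferating cells. Sen replicates 1 and 2 had 37 and 27 peaks in lists of 84876 and 60873, and the Pro libraries had 19 and 17 in lists of 84314 and 89338. Per 10000 peaks of the list, the 4 Sen libraries had 4.36, 4.44, 5.32 and 4.50 peaks, and the 2 Pro libraries had 2.25 and 1.9. The groups did not overlap, and the difference was 2.57 peaks per 10000 (4.65 ± 0.449 in Sen, n = 4, and 2.08 ± 0.248 in Pro, n = 2, SD; exact two-sided permutation test, p = 0.0667, the smallest that 15 arrangements allow). With Sen replicates 1 and 2 alone, on lists cut to the 60862 best peaks each, the window held 28 and 27 peaks in Sen cells and 13 and 9 in Pro cells (exact permutation test, p = 0.333, the smallest that 6 arrangements allow). Over both windows the numbers were 50 and 35 in Sen and 33 and 31 in Pro, a difference of 10.5 ± 7.57 (SE; exact permutation test, p = 0.333), which was 3 without Sen replicate 1 and 18 without Sen replicate 2. Without scaling for list length, Sen replicate 4, which has the shortest of these lists, held 12 peaks, fewer than either Pro library, and Sen replicate 3 held 26. With these later libraries in place of replicates 1 and 2, the difference from Pro over both windows was -4.5 peaks. With all 4 Sen libraries, as deposited, it was 3 peaks (exact permutation test, p = 0.6). The later set of records has no Pro library, so tests with all 4 Sen libraries mix sets of records on the Sen side only.

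**Figure D1:**
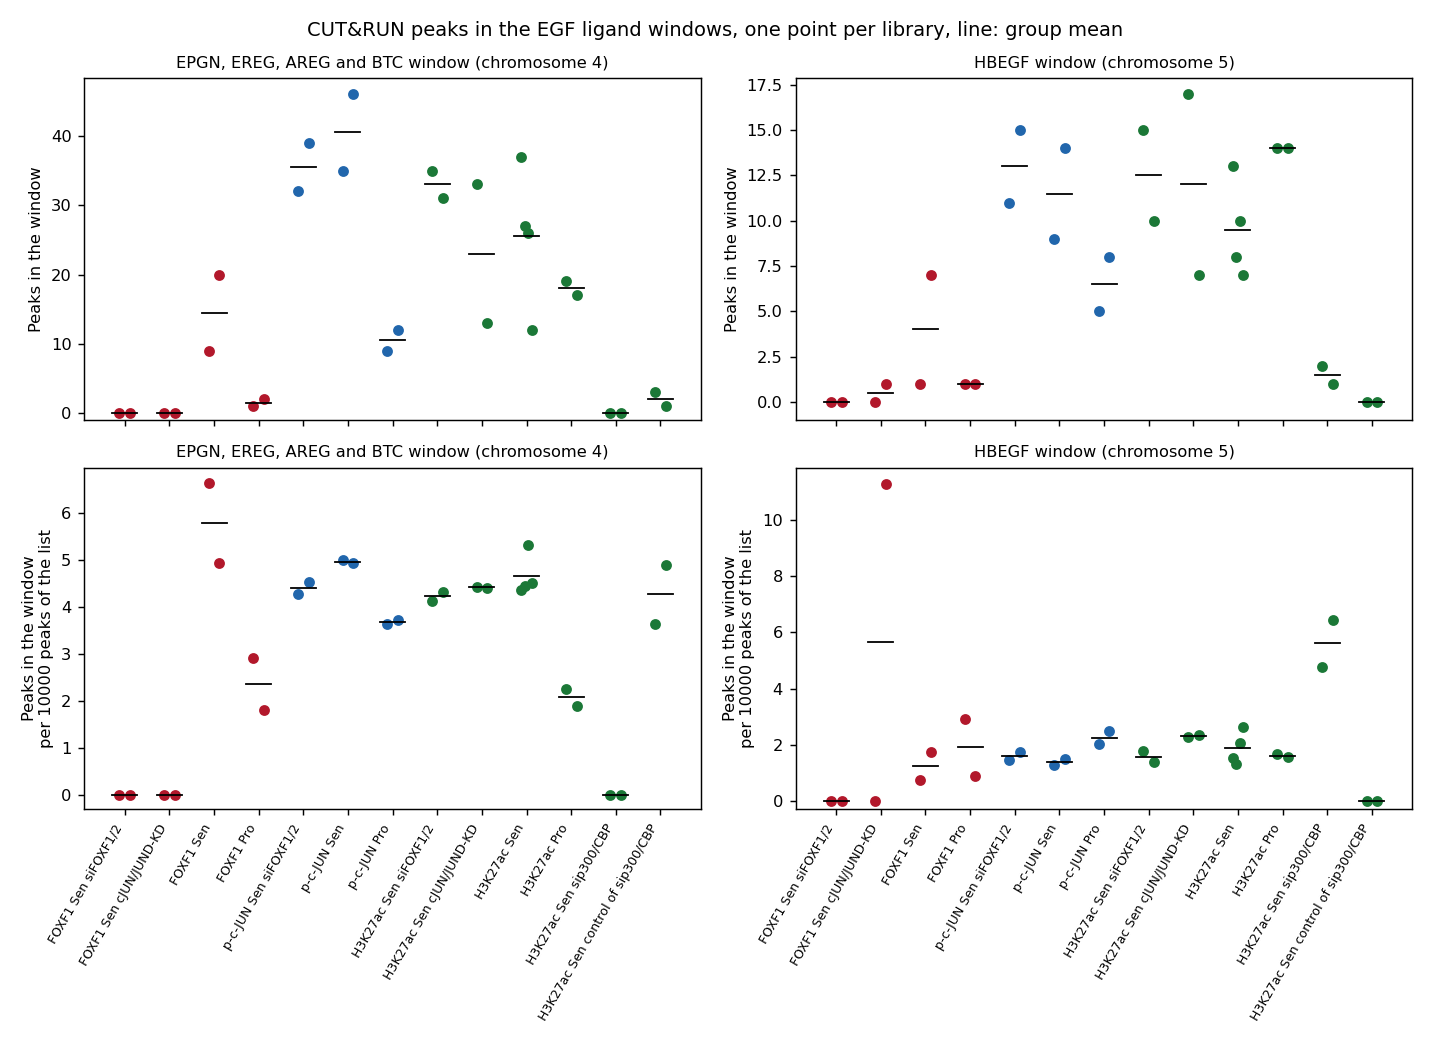
Number of peaks (top) and peaks per 10000 peaks of the same list (bottom) in each window, 1 point per library, with a line at the group mean; colours mark the antibody. In the chromosome 4 window the 4 H3K27ac Sen libraries lie between 4.36 and 5.32 per 10000, above both Pro libraries at 2.25 and 1.9. The isolated FOXF1 point at 11.3 in the HBEGF window is 1 peak in a list of 902.

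A region was called gained where both libraries of the named condition and neither library of its reference held a peak, and lost where the reverse held. By that rule 7 of 62 H3K27ac regions were gained in Sen replicates 1 and 2 against Pro (11.3%), beside 4.51% of all regions of the genome. All 7 were in the chromosome 4 window, where they made up 15.6% of 45 regions. The HBEGF window had only 17 regions. Gains were 3 when all 4 Sen libraries had to hold the peak, and 3 when only peaks with −log10 q of 5 or more were kept. Across both windows 3 of 62 were lost (4.84%, beside 9.56% of the genome), 2 of them in the HBEGF window. With Sen replicates 3 and 4 in place of 1 and 2, 3 regions were gained and 9 lost. For gained and lost calls, the share over the genome was computed on the lists as deposited only. Counts under other settings, here and below, cannot be set against such a share.

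The gained H3K27ac region with the best rank was chr4:75323563-75324717. Its fold enrichment, the authors' value over local background at the peak summit, was 4.51, 4.09, 4.66 and 4.65 in the 4 Sen libraries, and no Pro library had a peak. The next was chr4:75281553-75282391, with 5.36, 4.17, 5.68 and 4.93 in Sen and again no peak in Pro. These regions stand on either side of a 40.9 kb stretch, chr4:75282520-75323468, in which none of the 28 lists held a peak. Also found in all 4 Sen libraries was chr4:75694123-75694989 (4.38, 3.77, 5.09 and 5.44), with no peak in Pro. Among the 7 gained regions these were the 3 with a peak in both Sen replicates 3 and 4, which had not been used for the call (42.9%, beside 11.2% of the regions gained genome-wide). The other 4, at chr4:75381857-75382602, chr4:75550858-75551699, chr4:75515112-75515889 and chr4:75369269-75370104, had peaks of 2.38 to 5.10 fold in Sen replicates 1 and 2 and none in replicates 3 and 4.

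p-c-JUN peaks were also more numerous in senescent cells. The chromosome 4 window had 35 and 46 in Sen and 9 and 12 in Pro (exact permutation test, p = 0.333, the smallest possible here). Over both windows there were 44 and 60 in Sen and 14 and 20 in Pro, a difference of 35 ± 8.54 (SE; p = 0.333 by the same exact test). In the chromosome 4 window, per 10000 peaks, this was 4.99 and 4.92 in Sen and 3.63 and 3.73 in Pro, and on lists cut to 24808 peaks each it was 15 and 13 in Sen and 9 and 9 in Pro. The groups were apart on each of these scales, by less once list length was equal. Over both windows, per 10000 peaks, the values were 6.27 and 6.42 in Sen and 5.64 and 6.22 in Pro, a difference of only 0.412. On lists of equal length the difference over both windows was 5.5 peaks. Over both windows 22 of 66 regions were gained (33.3%), beside 28% of all regions of the genome, a share near the background, and 0 were lost, beside 0.307%. On lists of equal length 3 regions were gained, and with −log10 q of 5 or more 14 were.

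The p-c-JUN region gained with the best rank was chr4:75693989-75694706, at 10.9 and 9.70 fold in Sen and with no peak in Pro. It overlaps the H3K27ac region at chr4:75694123-75694989 described above. Next came chr4:75533637-75534413, at 8.59 and 13.5 fold in Sen and again without a peak in Pro. The p-c-JUN region at chr4:75281589-75282280 (8.79 and 6.83 fold in Sen, no peak in Pro) lies on the gained H3K27ac region on one edge of the 40.9 kb stretch. Of the 22 gained p-c-JUN regions, 19 were in the chromosome 4 window, 7, 6 and 6 of them when the window is cut into 3 equal parts from low to high coordinates. The 3 in the HBEGF window were chr5:139673295-139673546 (6.31 and 7.33 fold in Sen), chr5:139717981-139718909 (5.68 and 6.46) and chr5:139697468-139697783 (4.95 and 6.34), each without a peak in Pro.

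Other p-c-JUN regions were present in every library. The one with the highest mean fold, chr4:75584894-75585629, had 10.1 and 10.7 fold after siFOXF1/2, 12.4 and 9.69 in Sen and 13.0 and 13.7 in Pro. At chr4:75240253-75240977 the values were 11.3 and 10.2 after siFOXF1/2, 13.1 and 8.59 in Sen and 9.83 and 10.2 in Pro. In the first region both Sen values lay below both Pro values, and in the second they lay on either side of the Pro values. At chr4:75387891-75388854 the fold was 9.28 and 12.7 after siFOXF1/2, 13.3 and 11.6 in Sen and 8.13 and 7.12 in Pro, and at chr4:75133662-75134412 it was 12.4 and 12.2 after siFOXF1/2, 12.4 and 10.1 in Sen and 7.61 and 6.64 in Pro. In both of these the Sen and knockdown values lay above the Pro values.

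**Figure D2:**
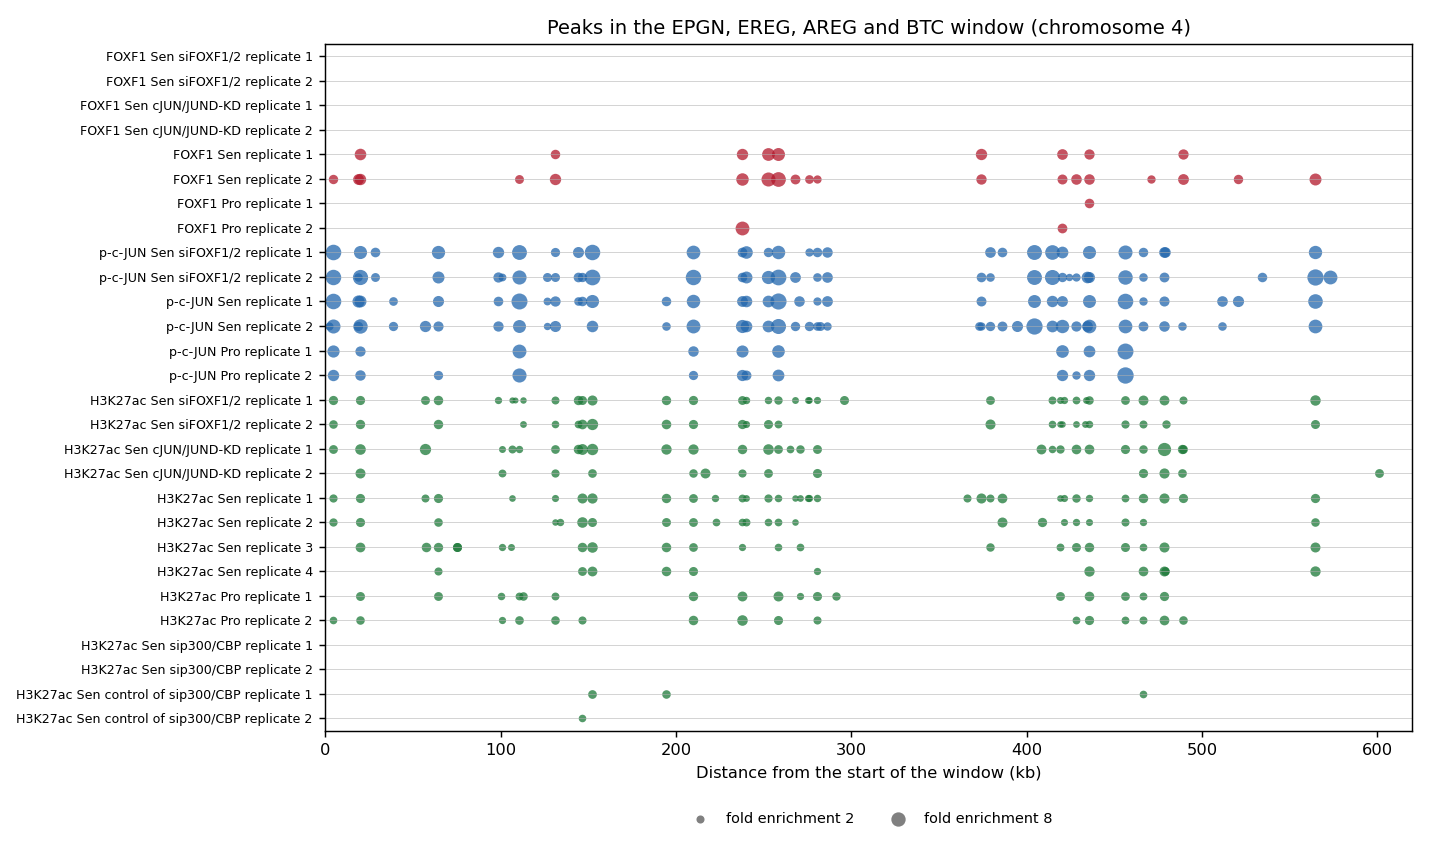
Peaks in the chromosome 4 window, 1 row per library, by distance from the start of the window in kb; point area grows with fold enrichment. Several p-c-JUN and FOXF1 positions are filled in Sen rows and empty in Pro rows, and no row has a peak in the empty stretches of 40.9 and 70.1 kb.

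FOXF1 peaks were fewer in number than those of the other antibodies, in shorter lists. The chromosome 4 window held 9 and 20 in Sen and 1 and 2 in Pro (exact permutation test, p = 0.333, the smallest possible here). Over both windows there were 10 and 27 in Sen and 2 and 3 in Pro, a difference of 16 ± 8.51 (SE; p = 0.333 by the same exact test), which was 24.5 without Sen replicate 1 and 7.5 without Sen replicate 2. In the chromosome 4 window, per 10000 peaks, this was 6.62 and 4.93 in Sen and 2.91 and 1.81 in Pro, and on lists of 3441 peaks each it was 3 and 3 in Sen and 1 and 1 in Pro. Over both windows 6 of 27 regions were gained (22.2%), beside 13.1% of the genome, and 0 were lost, beside 0.35%. On lists of equal length 2 were gained. All 6 were in the chromosome 4 window, which had 20 of the regions, against only 7 in the HBEGF window.

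Of the FOXF1 gains the best ranked was chr4:75388167-75388821, with 8.62 and 11.1 fold in Sen and no FOXF1 peak in Pro. There p-c-JUN and H3K27ac already had peaks in both Pro libraries (p-c-JUN 8.13 and 7.12, H3K27ac 5.09 and 4.21). The next, chr4:75382143-75382559, had 8.36 and 10.1 fold in Sen and no peak of any of the 3 antibodies in Pro. That region was gained for all 3: p-c-JUN had 7.00 and 7.07 fold in Sen, and H3K27ac had 3.45 and 2.99 in Sen replicates 1 and 2, with no peak in replicates 3 and 4. It is the 1 region of the windows where a FOXF1 gain lay on an H3K27ac gain. The other FOXF1 gains were chr4:75149508-75149999 (6.85 and 6.60), chr4:75618498-75619270 (5.41 and 6.00), chr4:75503585-75503993 (6.60 and 5.48) and chr4:75260547-75261035 (4.61 and 3.29).

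Regions with a peak in both Sen libraries of an antibody (replicates 1 and 2) were compared between antibodies. In the windows 9 of 10 such FOXF1 regions lay on p-c-JUN (90%, exact binomial 95% interval 55.5 to 99.7), beside 73.9% over the genome, and 7 of 10 an H3K27ac region (70%, interval 34.8 to 93.3), beside 69.1%. In the other direction, 9 of 39 p-c-JUN regions (23.1%, interval 11.1 to 39.3) overlapped FOXF1, beside 14.1%. The intervals cover counting error only, and each holds the share over the genome. With −log10 q of 5 or more, 2 of 7 FOXF1 regions lay on H3K27ac (28.6%, beside 40.2% over the genome). In the 9 shared regions the FOXF1 and p-c-JUN summits were 14 to 205 bp apart, with a median of 127 bp. Of the 105 joined regions, 20 held peaks of all 3 antibodies in some library, 24 of p-c-JUN and H3K27ac alone, 2 of FOXF1 and p-c-JUN alone and 2 of FOXF1 and H3K27ac alone, while 36 were H3K27ac only, 20 p-c-JUN only and 1 FOXF1 only.

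**Figure D3:**
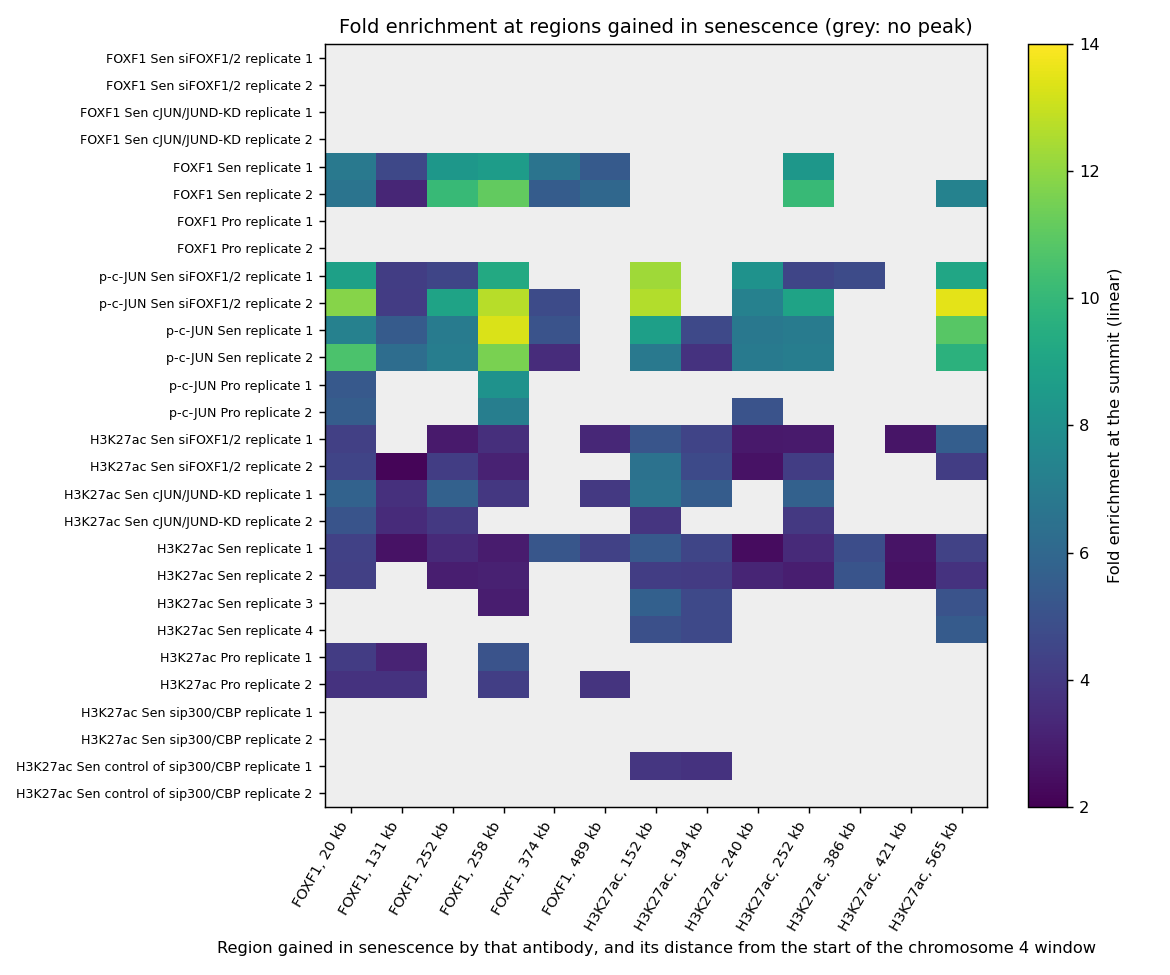
Fold enrichment of the peaks of all 28 libraries at the 6 FOXF1 and 7 H3K27ac regions gained in senescence, grey where a library had no peak; columns are named by distance from the start of the chromosome 4 window. FOXF1 is filled in the Sen rows alone at its 6 regions, while p-c-JUN after siFOXF1/2 has peaks at several of them.

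After siFOXF1/2, the FOXF1 lists had 0 and 0 peaks in the windows, against 10 and 27 in the Sen libraries (exact permutation test, p = 0.333, the smallest possible here). The JUN knockdown gave 0 and 1, against the same Sen libraries (p = 0.333 by the same exact test). Both knockdowns lost the same 10 regions, which are all the FOXF1 regions of the windows held by both Sen libraries. These were 10 of 27 after siFOXF1/2 (37%), beside 26.2% of the genome, and 10 of 28 after the JUN knockdown (35.7%), beside 25.4%. No knockdown peak lay on any of them, so these shares restate how far the Sen libraries agreed. The equal counts are not separate evidence from each knockdown. Neither gained one, beside 0.0607% and 0.148% of the genome. Per 10000 peaks the values were 0 and 0 after siFOXF1/2, 0 and 11.3 after the JUN knockdown (1 peak in a list of 902) and 7.35 and 6.66 in Sen. The knockdown lists are short. When Sen lists were cut to the same 133 or 378 peaks, no Sen FOXF1 peak was left in the windows, so the loss here cannot be told apart from the shortness of the lists. The 1 FOXF1 peak after the JUN knockdown, chr5:139781410-139781672 (5.41 fold), starts 22 bp past the end of a region counted as lost. The JUN knockdown libraries also have later record numbers than their Sen reference, so the effect of knockdown and that of deposit cannot be told apart.

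The number of p-c-JUN peaks over both windows after siFOXF1/2, as deposited, differed from that in Sen cells by less than the spread between libraries. There were 43 and 54 peaks after siFOXF1/2 and 44 and 60 in Sen, a difference of -3.5 ± 9.71 (SE; exact permutation test, p = 0.667). In the chromosome 4 window the groups stood apart once list length was taken into account. Per 10000 peaks there were 4.27 and 4.53 after siFOXF1/2 and 4.99 and 4.92 in Sen, and on lists of 70177 peaks each there were 31 and 30 after siFOXF1/2 and 35 and 34 in Sen (exact permutation test, p = 0.333 for each, the smallest possible). Of 73 regions 4 were gained (beside 4.47% of the genome) and 2 lost (beside 4.03%). The 2 lost were chr4:75168208-75168628 (3.89 and 4.41 fold in Sen) and chr4:75641204-75641677 (5.79 and 3.78), and neither had a peak in Pro. The call of a loss here and that of a gain in senescence share the same Sen libraries. Of the 22 regions gained in senescence, 13 (59.1%) had a peak in both siFOXF1/2 libraries, beside 62.9% over the genome. The 14 regions held by all Sen and Pro libraries all had a peak in both siFOXF1/2 libraries, beside 96.4% over the genome. Among the gained regions kept after siFOXF1/2, the fold went in both directions. At chr4:75281589-75282280 the fold was 12.3 and 12.6 after siFOXF1/2 and 8.79 and 6.83 in Sen. At chr4:75260448-75260966 it was 4.18 and 4.15 after siFOXF1/2 and 5.43 and 6.29 in Sen.

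H3K27ac had 50 and 41 peaks after siFOXF1/2 and 50 and 35 in Sen replicates 1 and 2, a difference of 3 ± 8.75 peaks (SE; exact permutation test, p = 1). The sign turned on lists of equal length (-3). Per 10000 peaks there were 5.91 and 5.71 after siFOXF1/2 and 5.89 and 5.75 in Sen, a difference of -0.0114. In the chromosome 4 window alone the groups stood apart per 10000 peaks, at 4.13 and 4.32 after siFOXF1/2 and 4.36 and 4.44 in Sen. On lists of 60862 peaks that window held 26 and 25 against 28 and 27 (exact permutation test, p = 0.333 on both scales, the smallest possible). As deposited the groups overlapped there, at 35 and 31 against 37 and 27. In the HBEGF window they overlapped per 10000 peaks. Of 65 regions 3 were gained (beside 5.51% of the genome) and 1 lost (beside 4.26%). The 1 lost, chr4:75515112-75515889 (4.83 and 5.10 fold in Sen), had no peak in Pro or in Sen replicates 3 and 4, so with all 4 Sen libraries 0 were lost. Of the 7 regions gained in senescence, by a call that shares these Sen libraries, 5 had a peak in both siFOXF1/2 libraries (71.4%, beside 32.5% over the genome). Both edge regions of the 40.9 kb stretch were among them, at 4.47 and 4.71 fold (chr4:75323563-75324717) and at 5.18 and 6.52 fold (chr4:75281553-75282391) after siFOXF1/2.

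After the JUN knockdown H3K27ac had 50 and 20 peaks, against 36 and 19 in Sen replicates 3 and 4 (difference 7.5 ± 17.2, SE; exact permutation test, p = 0.667). Per 10000 peaks the direction turned, with 6.71 and 6.76 after the knockdown and 7.37 and 7.12 in Sen, a difference of -0.509. Of 66 regions 6 were gained (beside 7.66% of the genome) and 2 lost (beside 2.74%), while with −log10 q of 5 or more 0 were gained and 0 lost. The 2 lost were chr4:75193741-75194816 (4.43 and 3.35 fold in Sen) and chr4:75694173-75694927 (5.09 and 5.44 in Sen). That second one is the region gained in senescence by p-c-JUN and, in all 4 Sen libraries, by H3K27ac. At the edge of the empty stretch, chr4:75281553-75282391 had 6.63 and 3.87 fold after the JUN knockdown, against 5.68 and 4.93 in Sen replicates 3 and 4, and chr4:75323563-75324717 had 5.47 and no peak, against 4.66 and 4.65. The regions gained at chr4:75382143-75382632 and chr4:75260399-75260946 had H3K27ac peaks in 2 and 1 of Sen replicates 1 and 2. The second knockdown library has a list of 29634 peaks, the first one of 74508.

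Against its own controls the sip300/CBP knockdown gave 2 and 1 H3K27ac peaks, and the controls had 3 and 1 (difference -0.5 ± 1.12, SE; exact permutation test, p = 1). All 3 knockdown peaks were in the HBEGF window and all 4 control peaks in the chromosome 4 window. Of 7 regions none was gained (beside 2.02% of the genome) or lost (beside 2.69%). Per 10000 peaks the direction turned, with 4.78 and 6.46 after sip300/CBP and 3.64 and 4.89 in the controls, a difference of 1.35. With 1 to 3 peaks per library in the windows, neither direction is established.

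**Figure D4:**
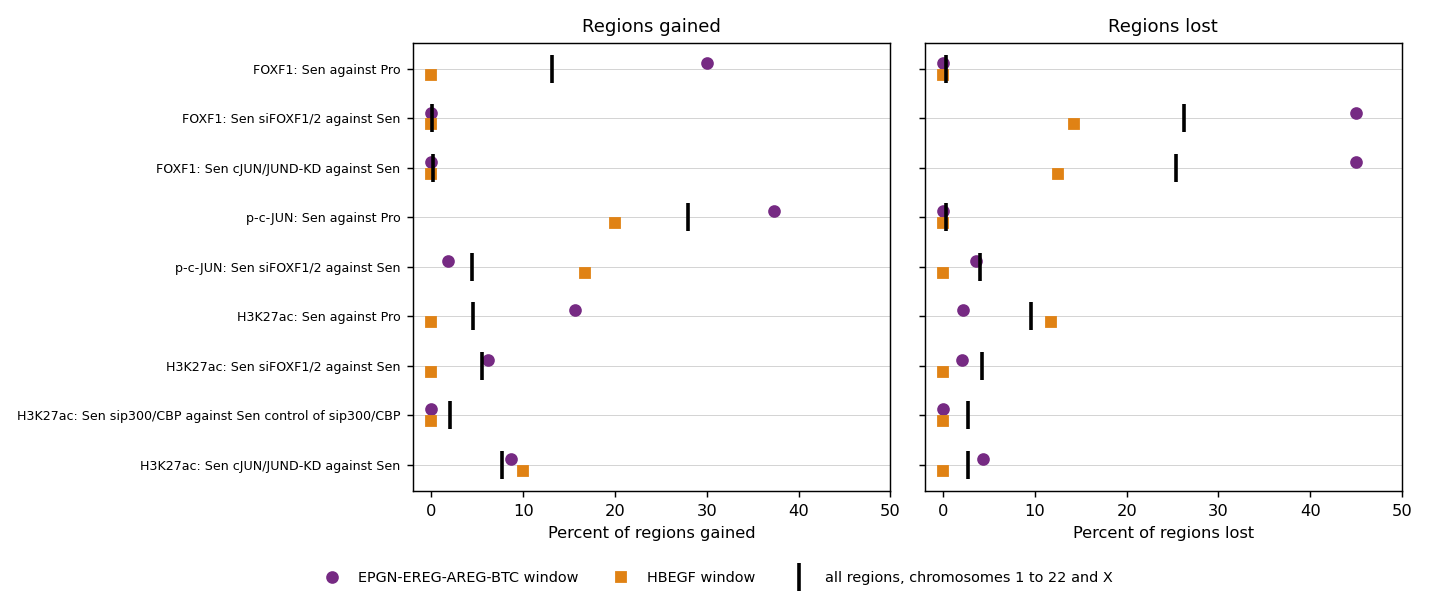
Percent of regions gained (left) and lost (right) in each comparison, for the chromosome 4 window (circles), the HBEGF window (squares) and all regions of chromosomes 1 to 22 and X (black bars). H3K27ac gains in senescence make up 15.6% of 45 regions in the chromosome 4 window and 4.51% of the genome. The HBEGF window has none among only 17 regions.

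In the HBEGF window the senescence comparison gave smaller differences in peak number. This window is 140 kb long, against 620 kb on chromosome 4, and the differences were not scaled for window length. H3K27ac had 13, 8, 10 and 7 peaks in the 4 Sen libraries and 14 and 14 in Pro, or 1.53, 1.31, 2.05 and 2.62 per 10000 in Sen and 1.66 and 1.57 in Pro. As deposited, all 4 Sen libraries were below both Pro libraries. Per 10000 peaks, the groups overlapped with all 4 Sen libraries (exact permutation test, p = 0.733). With Sen replicates 1 and 2 alone they stood apart, lower in Sen (exact permutation test, p = 0.333, the smallest possible). On lists of 60862 peaks these 2 overlapped Pro, at 11 and 8 in Sen and 10 and 11 in Pro. The contrast with the chromosome 4 window was not tested. p-c-JUN had 9 and 14 peaks in Sen and 5 and 8 in Pro, but fewer per 10000 peaks in Sen (1.28 and 1.5) than in Pro (2.02 and 2.49; exact permutation test, p = 0.333). FOXF1 had 1 and 7 in Sen and 1 and 1 in Pro, or 0.735 and 1.73 per 10000 in Sen and 2.91 and 0.904 in Pro, which overlap. The H3K27ac regions lost in senescence there were chr5:139671795-139672512 (3.15 and 2.80 fold in Pro) and chr5:139677639-139678077 (2.52 and 2.44), both weak. After siFOXF1/2, 3 of the 4 p-c-JUN gains of the windows were in the HBEGF window (16.7% of 18 regions there, beside 4.47% of the genome), led by chr5:139704191-139704867 (6.06 and 5.31 fold). On lists of equal length 1 region was gained over both windows.

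The most widely shared region of either window was near the far end of the HBEGF window. It is not assigned to HBEGF, because no hg19 gene positions were used. In RefSeq the next protein-coding genes after HBEGF, by rising coordinates, are SLC4A9, ANKHD1-EIF4EBP3 and ANKHD1. Whether the region lies at one of these was not tested. At chr5:139780035-139782374, joined over all antibodies, 21 of 28 libraries had a peak. It held the 1 FOXF1 region found in all Sen and Pro libraries, chr5:139780521-139781387, at 7.83 and 8.29 fold in Sen and 6.86 and 8.79 in Pro. The p-c-JUN fold there was 9.32 and 9.16 after siFOXF1/2, 7.29 and 10.4 in Sen and 8.83 and 8.94 in Pro. H3K27ac had a peak in 10 of 14 libraries, the 4 without one being the sip300/CBP libraries and their controls. The H3K27ac region with the most libraries in the HBEGF window, chr5:139702349-139705044, had peaks in 11 of 14, from 3.44 fold after sip300/CBP to 5.72 in Sen replicate 3.

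**Figure D5:**
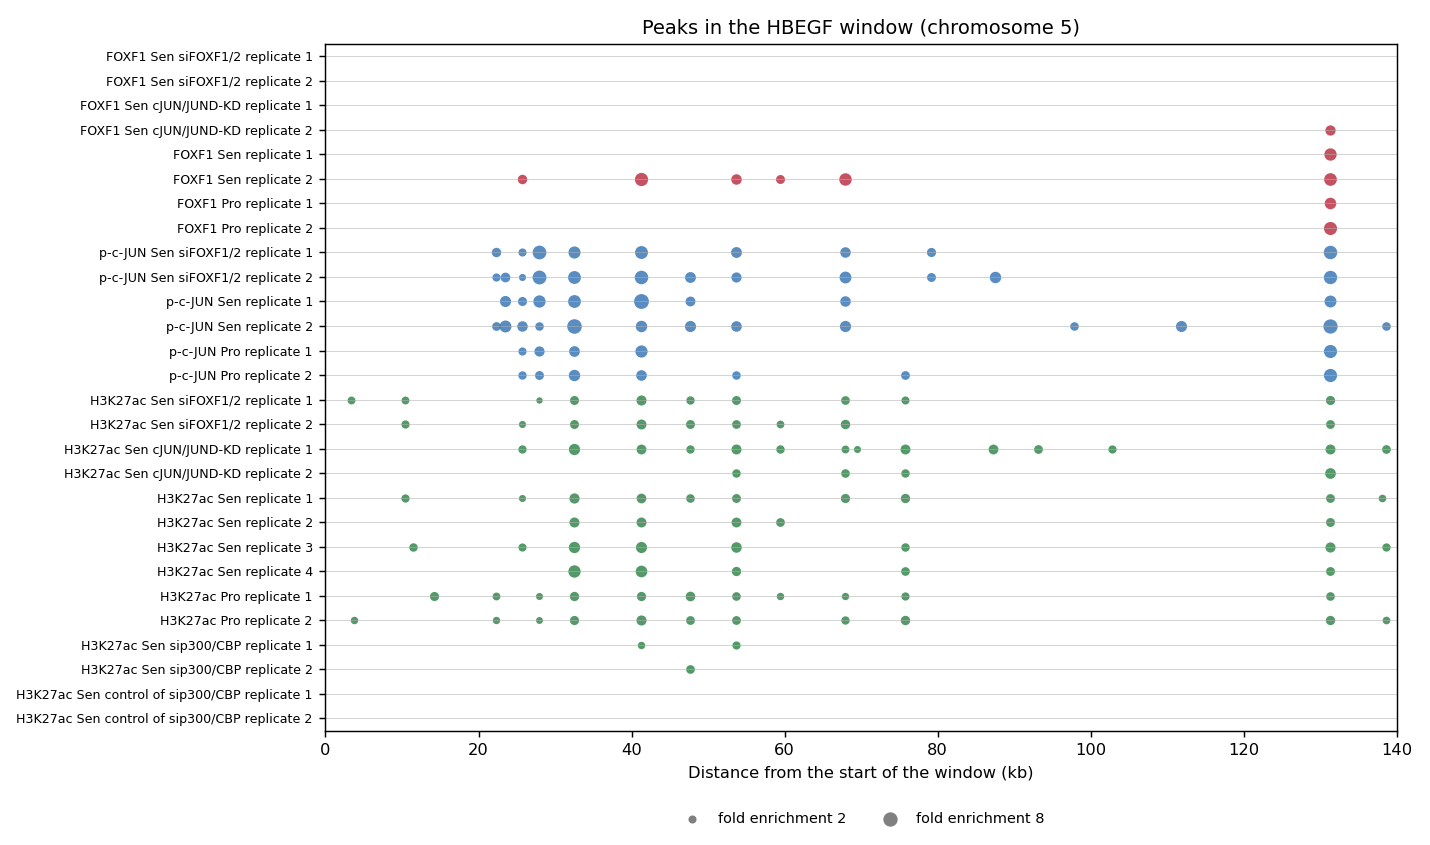
Regions with peaks in the HBEGF window, 1 row per library, by distance from the start of the window in kb. Each point stands at the middle of a region joined over all 28 libraries and 3 antibodies, and can hold several peaks of a library. Point area grows with the fold enrichment of that library's best peak there by −log10 q. Sen replicates 1 and 2 and the Pro libraries form 17 H3K27ac regions here, of which 5 are held by all of these libraries and 2 are lost in Sen. The rightmost position shared by most rows has a peak in 21 of 28 libraries and holds peaks of all 3 antibodies.

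Some long stretches of the chromosome 4 window held no peak in any list: chr4:75425842-75495904 (70.1 kb) and chr4:75282520-75323468 (40.9 kb). In hg19 AREG has a near-identical copy named AREGB, which RefSeq now lists as a synonym of AREG. Reads from such copies cannot be told apart. Whether this bears on the empty stretches was not tested, and the sources used here do not give how reads with several matches were handled. The longest empty stretch of the HBEGF window was chr5:139762120-139780034 (17.9 kb).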

How the data were processed

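CUT&RUN, in which a protein A-micrococcal nuclease fusion cuts DNA beside an antibody, was run on IMR-90 ER:Ras cells. The 28 deposited files are peak lists, 1 per library with none pooled, and per the submitters' processing notes Bowtie2 2.3.4.1, SAMtools 1.9, deepTools 3.1.1, MACS2 3.0.0 and build hg19 were used, with no parameters or control library given in the sources used here. Each deposited peak has a score, a fold enrichment ratio over local background at its summit and −log10 p- and q-values, as the authors' peak caller wrote them. No such value was compared between lists by a test.

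From these lists, peaks on chromosomes 1 to 22 and X (1123337 kept, 475 left out) were joined at an overlap of at least 1 bp within each of 9 comparisons, and coordinates count from 1. Groups came from sample titles. Peak numbers in the windows were tested over libraries by exact permutation, two-sided; 2 against 2 gives 6 arrangements and a smallest p of 0.333. Named regions were, for each comparison, at most 10 gained and 10 lost, ordered by the poorer of their 2 ranks in −log10 q, and for each antibody the 5 with peaks in most libraries, ties going to the higher mean fold. Alternatives were equal list lengths (best −log10 q kept), a minimum −log10 q of 5, joining only at 50% of the shorter peak, leaving out each replicate, a replicate block and all 4 H3K27ac Sen libraries. Numbers per 10000 peaks and Sen replicates 3 and 4 against Pro were added after seeing the data. The windows, genes and lists were chosen with earlier results of these data known.

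As a check of the code, 200 gains and 200 losses were planted in gaps of the real lists of every comparison. They were built to meet the calling rule, and 100% were recovered with 0 extra calls. That outcome was fixed by how they were built, so it gives no error rate for the gained and lost calls. Same-numbered replicates had no stated pairing. No hg19 gene positions were used, so regions are not assigned to single genes, and the counts for receptors, other ligands and cell type markers were not analysed here. Python 3.11.15, numpy 2.4.6, scipy 1.17.1 and matplotlib 3.10.9 were used.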

Additional observations from a re-analysis of the deposited data

How the results depend on the processing

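Each value below is the number in the windows, the difference in peak number or the regions gained or lost. The share of gained and lost regions over the genome was not computed under these settings. Whether a changed count is particular to the windows was therefore not tested. With −log10 q of 5 or more, gained regions were 14 for p-c-JUN in Sen against Pro, 2 for p-c-JUN and 1 for H3K27ac after siFOXF1/2, 3 for H3K27ac in Sen against Pro, and 0 gained and 0 lost for H3K27ac after the JUN knockdown. The difference in peak number was then 0 for p-c-JUN after siFOXF1/2 and 0 for H3K27ac after sip300/CBP. Overlap shares on H3K27ac moved to 28.6% for FOXF1 (40.2% over the genome) and 23.1% for p-c-JUN (23.5%) in Sen. In Pro they moved to 0% for FOXF1 (0 of 1 region, 71.5% over the genome) and 36.4% for p-c-JUN (68.8%), with 0% of H3K27ac regions on FOXF1 (2.9%).

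With lists cut to equal length, gained regions were 2 for FOXF1 and 3 for p-c-JUN in Sen against Pro, and 1 for p-c-JUN after siFOXF1/2. FOXF1 regions lost were 0 after siFOXF1/2 and 0 after the JUN knockdown, with differences in peak number of 0 and 0.5. The H3K27ac difference was -3 after siFOXF1/2 and 0.5 after sip300/CBP, and 4 regions were lost after the JUN knockdown. With an overlap of 50% of the shorter peak, 1 p-c-JUN region was lost after siFOXF1/2.

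With all 4 H3K27ac Sen libraries, 3 regions were gained against Pro, 0 were lost after siFOXF1/2, and the JUN knockdown gave 2 gained and a difference of 0. With Sen replicates 3 and 4 in place of 1 and 2, the difference from Pro over both windows was -4.5, with 3 gained and 9 lost. Per 10000 peaks, the H3K27ac differences were -0.0114 after siFOXF1/2, 1.35 after sip300/CBP and -0.509 after the JUN knockdown. Each of these alternatives differs in list length or number of libraries; the cause of the reversals was not tested.

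With 1 library left out, its partner alone sets the call, and no count of gained or lost regions was then below the one with all libraries. Leaving out 1 library at a time, FOXF1 gains in Sen ranged from 6 to 24, its losses from 10 to 27 after siFOXF1/2 and from 10 to 27 after the JUN knockdown, whose gains ranged from 0 to 1. The counts of 24 and 27 came without Sen replicate 1. The FOXF1 difference in Sen against Pro ranged from 7.5 to 24.5 and that of H3K27ac from 3 to 18. p-c-JUN gains ranged from 22 to 41 (without Sen replicate 1) and losses from 0 to 1 (without Pro replicate 1) in Sen, and after siFOXF1/2 gains from 5 to 9 (without knockdown replicate 1), losses from 3 to 12 (without Sen replicate 1) and the difference from -11.5 to 4.5. H3K27ac gains ranged from 8 to 21 (without Sen replicate 2) and losses from 3 to 10 (without Sen replicate 1) in Sen against Pro. After siFOXF1/2 its gains ranged from 3 to 10 (without knockdown replicate 2), losses from 1 to 9 (without Sen replicate 2) and the difference from -4.5 to 10.5. After sip300/CBP the ranges were 0 to 2 gained, 0 to 3 lost and -1.5 to 0.5, and after the JUN knockdown 6 to 26 gained (without knockdown replicate 2), 2 to 11 lost (without Sen replicate 4) and -7.5 to 22.5. Every p in these alternatives was 0.333 or above, so no call by that test could change.

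Over 2820 bins of 1 Mb, the deviations of same-numbered replicates within their groups correlated at -0.05 to 0.26. With 2 pairs per comparison, the numbers were not taken as pairing. These are not correlations of the replicate libraries themselves. H3K27ac after the JUN knockdown was not included, since its replicate numbers differ from those of its reference. With a replicate block the differences equal the unblocked ones: 16 (FOXF1), 35 (p-c-JUN) and 10.5 (H3K27ac) in Sen against Pro, -18.5 (FOXF1), -3.5 (p-c-JUN) and 3 (H3K27ac) after siFOXF1/2, -18 for FOXF1 after the JUN knockdown and -0.5 after sip300/CBP. Unknown read depth and 2 libraries per group limit all of these values.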
